A study of Saccharomyces cerevisiae with 68 samples.

Results

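The genes described here are 41 yeast genes of amino acid synthesis outside the sulfur and branched-chain pathways. They are the rows of the deposited table whose reading frame carries, in the R64 annotation, the symbol of 1 of 41 named genes, out of 6297 reading frames in all. By pathway they comprise 5 genes of arginine, 7 of lysine, 5 of histidine, 4 of tryptophan, 7 of the shared aromatic route, 5 of homoserine and threonine, 4 of ammonia assimilation and the amides, and 4 of serine. RNA was measured on 68 2-colour arrays of 5 Saccharomyces cerevisiae strains. K9 is a sake strain, M22 a vineyard strain, RM11-1a a haploid derivative of a vineyard isolate with LEU2 and URA3 deleted, YPS163 an oak strain and DBY8268 a laboratory strain of S288c background. All strains grew logarithmically at 25C in YPD, a rich medium, and were brought to 37C by adding prewarmed medium. On 60 arrays, the RNA of a strain at 5, 15, 30, 45, 60 or 120 min after the shift was set against that strain's own RNA at 25C, with 2 arrays for each strain and time. On the other 8 arrays, K9, M22, RM11-1a and YPS163 at 25C were each set against DBY8268 at 25C, with 2 arrays a strain. Values are the authors' log ratios, taken as log2, so that a value of 1 is a 2-fold higher level in the numerator.

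In yeast, most genes of these pathways are activated by the transcription factor Gcn4, whose translation increases when uncharged tRNA activates the kinase Gcn2. Single pathways add their own control: the Arg80, Arg81, Arg82 and Mcm1 proteins act on arginine genes, Lys14 on lysine genes, and Aro80 on ARO9 and ARO10, which break down aromatic amino acids to fusel alcohols. GLN1 and other nitrogen genes respond to the quality of the nitrogen source through the GATA factors Gln3 and Gat1. The rich medium used here supplies amino acids to the cells.

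All 41 genes passed the filter for the time courses, which 4360 reading frames did, with a value on 55 to 60 of the 60 arrays. At 25C 37 of them were tested among 5306 reading frames, since ARG8, CPA1, HIS3 and SER1 lacked values there. Their values on replicate arrays correlated with r between 0.381 and 0.977 across these genes, with a median of 0.882 over 30 groups, lowest for YPS163 at 120 min. The chaperone gene HSP104, a marker of the heat response, averaged 6.22 at 5 min and 6.35 at 15 min over the 5 strains, and LEU2 (−5.57) and URA3 (−6.43) were low in RM11-1a at 25C on the 1 array that held values for them. The number of arrays, 2 a group, limits the precision, and nothing in the labels says that the 2 arrays came from separate cultures. Most arrays of a replicate time course share a 25C RNA, but p-values at single times treat all arrays as independent. The SE and p-value of a mean over strains come from the spread between replicate arrays, not from the spread among strains. LYS20 and LYS21, ASN1 and ASN2, SER3 and SER33, and ARO3 and ARO4 are isozyme pairs of similar sequence, so their array values could in part share signal and are uncertain to that extent.

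At 15 min after the shift most of the 41 genes were lower than at 25C. By limma on the mean of the 5 strains, 34 were lower and 2 were higher at an adjusted p under 0.05, beside 39.9% lower and 38.1% higher among all genes tested. Their median log2 change was −0.91, beside −0.01 over all genes. The 2 higher genes were ARO9 and ARG4, and CPA1, LYS1, ARG3, TRP3 and TRP4 did not pass the test. The genes that were lower covered all 8 groups: 6 of 7 lysine genes, 5 of 5 histidine genes, 6 of 7 aromatic genes, 5 of 5 homoserine and threonine genes, 4 of 4 ammonia and amide genes, 4 of 4 serine genes, 2 of 4 tryptophan genes and 2 of 5 arginine genes. Group medians ran from −1.23 for lysine and −1.17 for histidine to −0.23 for arginine and −0.22 for tryptophan. Of the 36 calls, 30 held in every alternative processing and with every series of arrays left out in turn, and the 6 others were those of ARG4, HIS5, HOM3, HOM6, TRP2 and SER3.

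**Figure D1:**
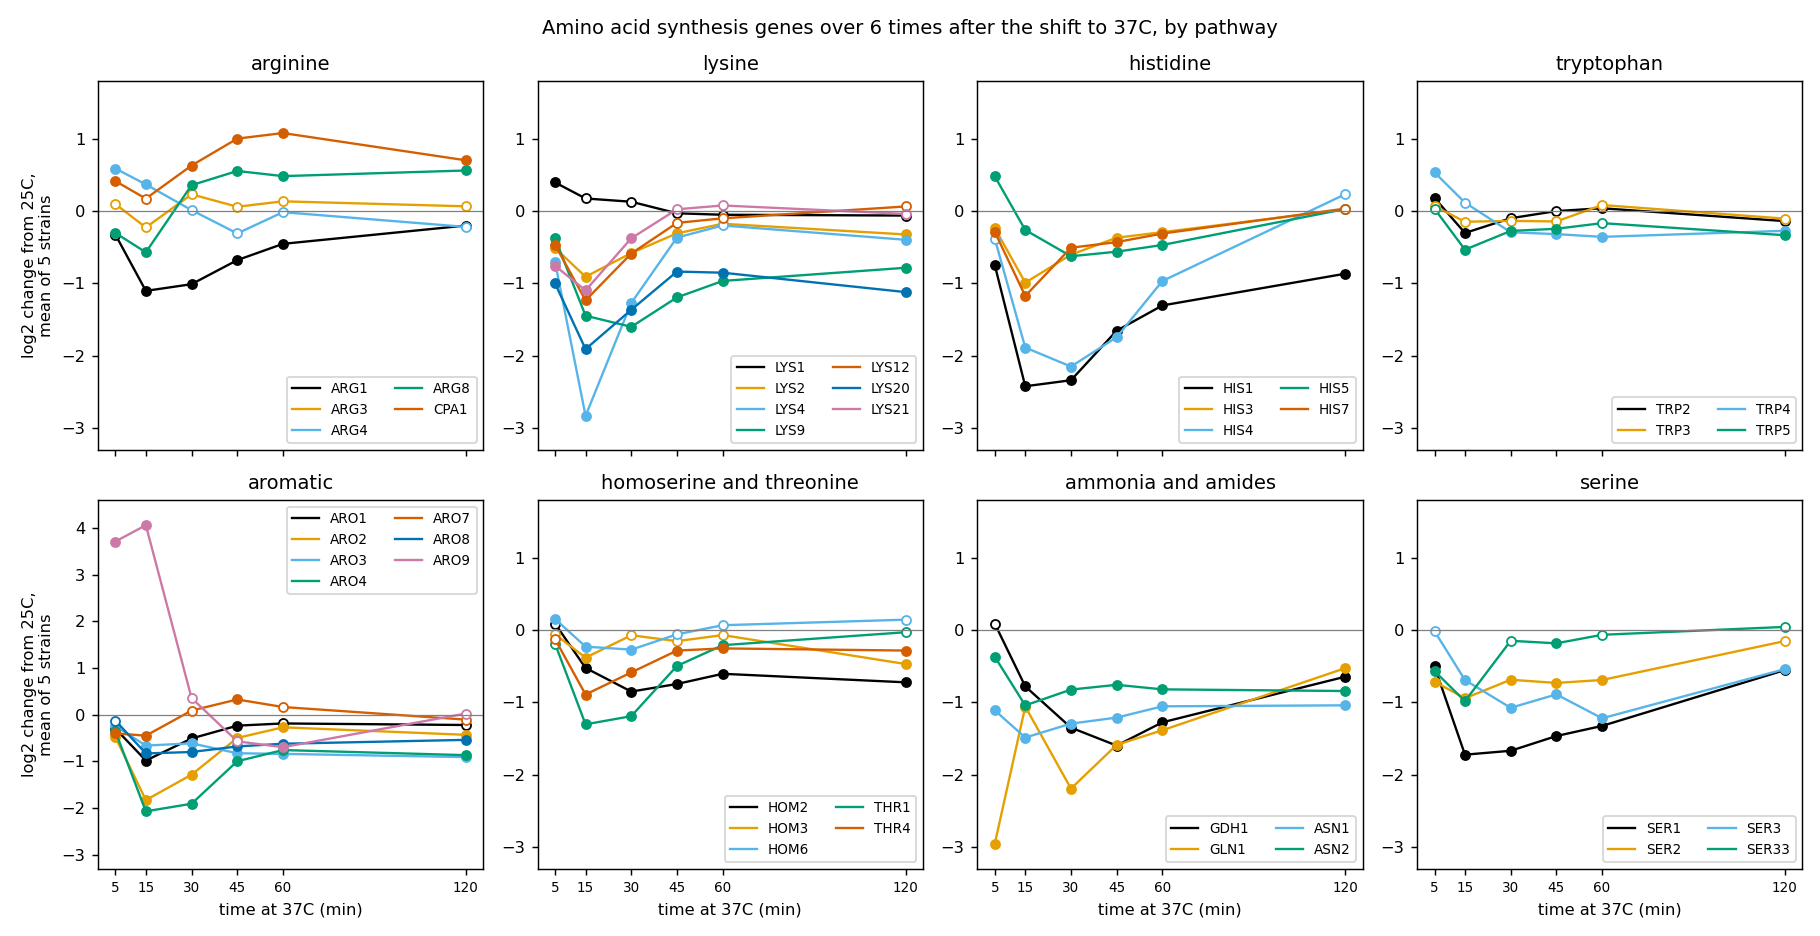
Mean log2 change of each gene over the 5 strains (vertical axis) at 6 times after the shift to 37C (horizontal axis, min), in 1 panel per pathway. Filled points passed the limma test at an adjusted p under 0.05 and open points did not. Most lines reach their lowest point at 15 or 30 min, while ARO9 stands near 4 at 5 and 15 min and GLN1 has its lowest point at 5 min.

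The decline was already under way at 5 min and had narrowed by 120 min. At 5 min 21 genes were lower and 8 higher, beside 36.2% and 31.1% of all genes. At 30 min the counts were 30 lower and 2 higher, beside 26.8% and 40.6%, and at 45 min 28 lower and 3 higher, beside 20.4% and 33.7%. At 60 min 24 were lower and 2 higher, beside 22.6% and 24.3%, and at 120 min 20 were lower and 2 higher, beside 20.9% and 30.7%. Their median was −0.29 at 5 min and −0.60 at 30 min, then −0.43, −0.29 and −0.22 at the 3 later times, whereas the median of all genes stayed between −0.04 and 0.11 at those times. With the prefix of the array code as a covariate, the count of called genes at 45 min was 18 in place of 31.

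Within lysine synthesis, the fall at 15 min was deepest in LYS4, which encodes homoaconitase. LYS4 spanned −3.82 to −1.87 over the 10 arrays at 15 min, with a median of −2.97, and its mean was −2.83 ± 0.08 (SE; limma adjusted p 9.23e-26). Every array of every strain lay below 0. LYS20, which encodes a homocitrate synthase and so the first step, spanned −2.71 to −0.81 with a median of −1.94, and its mean was −1.91 ± 0.09 (SE; limma adjusted p 2.38e-19). By 120 min the 2 genes had parted. LYS4 then averaged −0.40, while LYS20 averaged −1.12 ± 0.10 (SE) and spanned −1.50 to −0.51 over 9 arrays, all below 0.

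The second homocitrate synthase gene, LYS21, differed from LYS20 in its later values. LYS21 spanned −1.52 to −0.66 with a median of −1.01 at 15 min, all 10 arrays below 0, and −0.61 to 0.45 with a median of −0.03 at 120 min. Its mean was −1.10 at 15 min, where it passed the test, and −0.04 at 120 min, where it did not. LYS12, the homoisocitrate dehydrogenase gene, had a mean of −1.23 at 15 min and 0.06 at 120 min, and only the first passed the test. LYS2, the aminoadipate reductase gene, had means of −0.91 and −0.32 at those times, both past the test. The 2 saccharopine dehydrogenase genes at the end of the pathway did not move alike: LYS9 averaged −1.45 at 15 min, −1.60 at 30 min and −0.78 at 120 min, all past the test, whereas LYS1 averaged 0.18 at 15 min and −0.06 at 120 min, neither past it.

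All 5 histidine genes fell at 15 min, led by the genes of the first step and of the trifunctional enzyme. HIS1, which encodes ATP phosphoribosyltransferase, spanned −3.17 to −1.46 with a median of −2.44 over the 10 arrays, and its mean was −2.42 ± 0.12 (SE; limma adjusted p 2.65e-19). HIS4, whose product carries out several steps, spanned −2.62 to −0.53 with a median of −2.23 (mean −1.89 ± 0.19, SE; limma adjusted p 4.27e-11). All arrays of both genes lay below 0, and the arrays nearest to 0 were those of DBY8268. HIS4 was lowest at 30 min, with a mean of −2.15, and at 120 min its mean was 0.23 and its arrays ran from −1.06 to 0.95, 6 above 0 and 4 below. HIS1 was still at −0.87 at 120 min, with all 10 arrays between −1.41 and −0.50.

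Means of HIS7, the imidazole glycerol phosphate synthase gene, and HIS3, the dehydratase gene of the next step, were −1.17 and −0.99 at 15 min, both past the test, and 0.04 and 0.03 at 120 min, neither past it. HIS5, which encodes histidinol-phosphate aminotransferase, fell least at 15 min. Its 10 arrays spanned −1.54 to 0.59 with a median of −0.08, so they lay on both sides of 0. The mean of −0.26 passed the test (limma adjusted p 0.0156), and it no longer did without M22 replicate 2 (adjusted p 0.065) or without YPS163 replicate 1 (adjusted p 0.13), nor with the array-code prefix as a covariate (0.29), without M22 (0.38) or with 15 min fitted alone (0.087).

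The aromatic route and its tryptophan branch held the largest rise and several of the largest falls. ARO3 and ARO4 encode the isozymes of the first step, 3-deoxy-arabino-heptulosonate phosphate synthase. ARO4 spanned −2.56 to −1.22 with a median of −2.17 at 15 min, and its mean was −2.07 ± 0.08 (SE; limma adjusted p 4.48e-23), whereas ARO3 spanned −1.26 to 0.04 with a median of −0.89 and a mean of −0.66. At 120 min their means lay close together: ARO4 averaged −0.87 with arrays from −1.49 to −0.36, and ARO3 −0.91 with arrays from −1.24 to −0.56. ARO2, which encodes chorismate synthase, spanned −2.28 to −1.46 with a median of −1.80 at 15 min and averaged −1.83 ± 0.08 (SE; limma adjusted p 1.62e-20). All arrays of ARO2 and ARO4 lay below 0.

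ARO1, the pentafunctional gene of the middle steps, averaged −0.98 at 15 min, and ARO7, the chorismate mutase gene, −0.45. ARO8, which encodes the aminotransferase that completes phenylalanine and tyrosine, averaged −0.83 at 15 min and −0.54 at 120 min. All 3 passed the test at 15 min. The tryptophan genes moved less. TRP2, one subunit of anthranilate synthase, averaged −0.30, and TRP5, the tryptophan synthase gene, −0.53 at 15 min, both past the test, whereas TRP3 (−0.15) and TRP4 (0.12) did not pass it. With the array-code prefix as a covariate, the adjusted p of TRP2 was 0.08. TRP2 spanned −0.98 to 0.35 over the arrays, with a median of −0.29, and TRP4 had the lowest mean of the tryptophan genes at 60 min, −0.36, which passed the test.

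ARO9 encodes the second aromatic aminotransferase, which also acts in the breakdown of aromatic amino acids. It was higher on all 10 arrays at 5 and at 15 min: the arrays ran from 2.10 to 5.08 with a median of 3.71 at 5 min, and from 2.73 to 6.19 with a median of 4.12 at 15 min. The means were 3.71 ± 0.29 (SE; limma adjusted p 1.77e-13) and 4.06 ± 0.29 (SE; limma adjusted p 6.64e-15). At 30 min the ARO9 arrays lay on both sides of 0, from −1.58 to 2.82 with a median of −0.38 over 9 arrays, and the mean of 0.36 did not pass the test. The drop between 15 and 30 min was −3.63 ± 0.12 (SE, limma adjusted p 1.58e-07) when taken within each series. The 25C RNA did not cancel in it for M22 replicate 2 and RM11-1a replicate 2, whose titles name another at 30 min. ARO10, the decarboxylase gene of the same breakdown route, had the pattern most like that of ARO9 among all genes tested (Pearson r 0.962 over 30 group means, a description, since the groups share strains and 25C RNA), with means of 3.98 at 5 min, 4.50 at 15 min and 0.29 at 30 min.

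No difference between strains passed the test for ARO9. At 15 min ARO9 read 6.19 and 4.04 in K9, 2.89 and 2.73 in M22, 4.29 and 3.51 in RM11-1a, 2.82 and 4.95 in YPS163, against 4.46 and 4.21 in DBY8268. The K9 and YPS163 pairs were the widest. The F test over strains gave a limma adjusted p of 0.222 at 15 min and 0.107 at 30 min. At 25C, ARO9 ran from −1.49 to 1.06 over the 8 arrays of the 4 other strains against DBY8268, on both sides of 0.

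**Figure D2:**
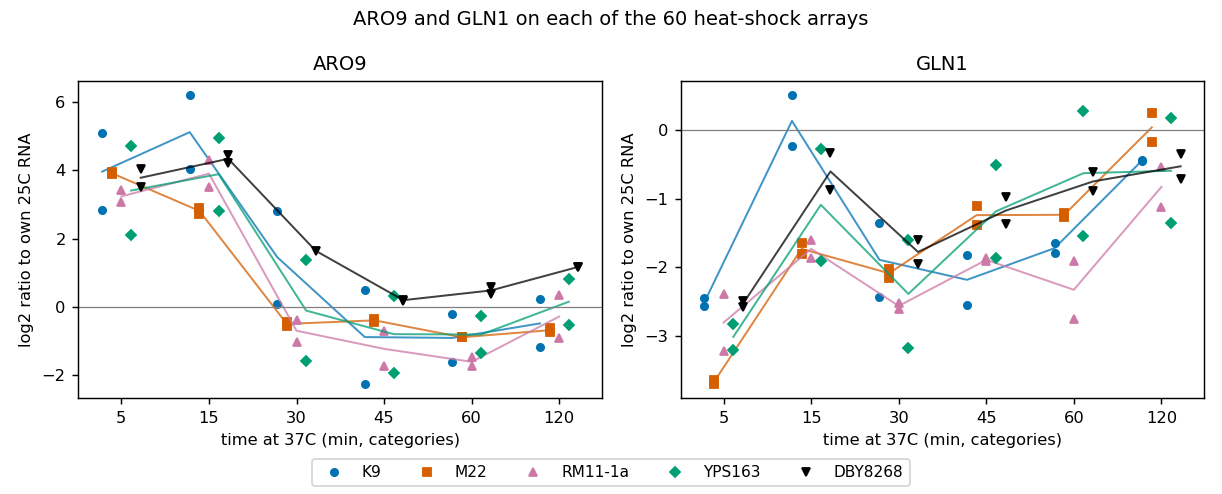
Log2 ratio to 25C (vertical axis) of ARO9 and GLN1 on each array at 6 times after the shift (horizontal axis, min), coloured by strain, with a line through the mean of the available arrays of each strain. ARO9 is above 2 on every array at 5 and 15 min, and GLN1 is below −2 on every array at 5 min and closer to 0 at 15 min than at 30 min in most pairs.

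GLN1, which encodes glutamine synthetase, had the deepest early fall of the 41 genes. It spanned −3.69 to −2.39 over the 10 arrays at 5 min, with a median of −2.69, all below 0, and its mean was −2.96 ± 0.13 (SE; limma adjusted p 2.7e-20). At 15 min GLN1 spanned −1.90 to 0.50 with a median of −1.24 and a mean of −1.06 ± 0.13 (SE; limma adjusted p 5.96e-09), and at 30 min it spanned −3.17 to −1.35 with a median of −2.08. The GLN1 arrays at 5 min and at 15 min did not overlap. Within series the change from 5 to 15 min was 1.90 ± 0.17 (SE; limma adjusted p 7.79e-06) and that from 15 to 30 min was −1.13 ± 0.15 (SE; limma adjusted p 0.000154), so the fall of GLN1 had eased at 15 min and had deepened again at 30 min. At 120 min its arrays ran from −1.36 to 0.24 with a median of −0.45, and its mean was −0.53 ± 0.13 (SE).

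The other genes of nitrogen assimilation followed other courses. GDH1, the NADP-dependent glutamate dehydrogenase gene, averaged 0.09 at 5 min, which did not pass the test, −0.78 at 15 min and −1.60 ± 0.08 at 45 min (SE; limma adjusted p 1.1e-17). All 10 GDH1 arrays lay below 0 at 30, 45 and 60 min. ASN1 and ASN2 encode the asparagine synthetases. ASN1 spanned −2.22 to −0.58 at 15 min with a median of −1.40, and −1.76 to −0.56 at 120 min with a median of −1.0, all arrays below 0. ASN2 spanned −1.70 to −0.21 with a median of −1.16 at 15 min, and −1.57 to −0.29 with a median of −0.81 at 120 min. Their means at 120 min, −1.04 for ASN1 and −0.84 for ASN2, both passed the test, and all 4 genes of ammonia assimilation and the amides were then lower, with a median of −0.74.

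The serine genes were lower at 15 min, all 4 past the test. SER3 and SER33 encode the phosphoglycerate dehydrogenases of the first step. SER3 spanned −1.68 to 0.84 over the arrays at 15 min with a median of −0.72, on both sides of 0, whereas SER33 spanned −1.53 to −0.39 with a median of −1.0. In the means over strains the order was turned later: SER3 averaged −1.22 at 60 min and −0.54 at 120 min, both past the test, while SER33 averaged −0.06 and 0.04, neither past it. The difference between SER3 and SER33 was not tested. Both genes differed between strains at 60 min (limma F test, adjusted p 0.00445 for SER3 and 7.14e-06 for SER33). SER1, the phosphoserine aminotransferase gene, averaged −1.72 at 15 min with arrays from −2.11 to −1.03, and −0.55 at 120 min. SER2, the phosphatase gene of the last step, averaged −0.94 at 15 min and −0.15 at 120 min, and only the first passed the test.

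In the homoserine and threonine branch, the genes of the last 2 steps fell most at 15 min. THR1, the homoserine kinase gene, averaged −1.30 and THR4, the threonine synthase gene, −0.89. Of the genes of the upper steps, HOM2 averaged −0.52, while the aspartate kinase gene HOM3 averaged −0.38 with arrays from −2.04 to 0.52 (median −0.30), and the homoserine dehydrogenase gene HOM6 averaged −0.23 with arrays from −0.70 to 0.12 over 8 arrays (median −0.26). All 5 passed the test, and the calls of HOM3 and HOM6 were lost in alternatives: HOM3 had an adjusted p of 0.074 without DBY8268 replicate 1, 0.088 without YPS163 replicate 2 and 0.22 with the array-code prefix as a covariate, and HOM6 one of 0.19 without M22 and 0.082 with 15 min fitted alone. At 120 min THR1 averaged −0.03, which did not pass the test, and HOM2 −0.72, which did.

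Arginine genes did not move together. ARG1, which encodes argininosuccinate synthetase, averaged −1.10 ± 0.17 at 15 min (SE; limma adjusted p 4.3e-07), with 9 arrays from −3.54 to 0.59 and a median of −1.14. ARG4, the argininosuccinate lyase gene of the next step, averaged 0.37 ± 0.14 (SE; limma adjusted p 0.0133), with arrays from −0.85 to 1.19 and a median of 0.58, 7 above 0 and 3 below. Both genes differed between strains at 15 min (limma F test, adjusted p 0.000155 for ARG1 and 0.0104 for ARG4), a spread that these SEs leave out. Against the average of the other strains, ARG1 differed by 1.84 in DBY8268 and −1.97 in M22, and ARG4 by −1.43 in RM11-1a. The call of ARG4 was lost without DBY8268 replicate 2 (adjusted p 0.053) and with the array-code prefix as a covariate (adjusted p 0.29). ARG8, which encodes acetylornithine aminotransferase, averaged −0.57 at 15 min and 0.56 ± 0.08 at 120 min (SE; limma adjusted p 1.24e-06). CPA1, the small subunit of the arginine-specific carbamoyl phosphate synthetase, averaged 0.17 at 15 min, which did not pass the test, 1.08 ± 0.13 at 60 min (SE; limma adjusted p 1.67e-08) and 0.70 ± 0.13 at 120 min. ARG8 and CPA1 were the 2 genes called higher at 30, 60 and 120 min.

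Arrays of CPA1 at 120 min spanned −0.88 to 1.72 with a median of 0.90, the lowest being in RM11-1a, and those of ARG8 spanned −0.22 to 1.19 with a median of 0.56. ARG3, the ornithine carbamoyltransferase gene, stayed between −0.23 and 0.23 in its means and did not pass the test at any time. Over 30 group means, the genes most like ARG1 included ARG3 (Pearson r 0.813), again as a description.

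Other genes of the same pathways, outside the 41, were read beside them. Of 24 such genes 19 were tested, and at 15 min 7 were higher and 9 lower in the mean of the 5 strains. Both counts lay near the shares over all genes, 38.1% higher and 39.9% lower. The higher ones included ARO10, CHA1, the catabolic serine and threonine deaminase gene (2.63), LYS5 (0.49), HIS2 (0.44), TRP1 (0.40) and ARG2 (0.37). The lower ones included GLT1, the glutamate synthase gene (−1.89), PRO1, the glutamate kinase gene (−1.42), and HIS6 (−1.25). Of the regulators, 6 of 12 were tested at this filter. GCN4 itself averaged −0.63 at 5 min, −1.12 at 15 min and −0.22 at 120 min, all past the test, on the level of its RNA, which does not report its translation. ARG81 (0.33) and GAT1 (0.27) were higher and LYS14 (−0.17) was lower at 15 min.

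The return toward the 25C level was measured as the change between 15 and 120 min within each series, in which the 25C RNA cancels. Of the 41 genes 25 were higher and 4 lower at 120 than at 15 min, beside 36.5% and 27.3% of all 4698 genes tested, and their median was 0.53, beside 0.08 over all genes. The largest rises were those of LYS4 at 2.44 ± 0.13, HIS4 at 2.12 ± 0.18 and HIS1 at 1.56 ± 0.16 (SE, limma). The 4 lower genes were ARO9 at −4.04 ± 0.18, ARG4 at −0.59 ± 0.10, TRP4 at −0.39 ± 0.12 and ARO3 at −0.25 ± 0.08. TRP4 spanned −0.62 to 0.02 on the arrays at 120 min, with a median of −0.23, and ARG4 −1.33 to 1.04, with a median of −0.10.

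The changes from 5 to 15 min and from 15 to 30 min were added after the values were seen. From 5 to 15 min 31 genes fell and 2 rose, beside 25% and 22.7% of all 4450 genes tested. The 2 that rose were GLN1 and ARO9, with ARO9 rising by 0.35 ± 0.09 (SE; limma adjusted p 0.00851). The deepest falls were those of LYS4 (−2.13), ARO4 (−1.72) and HIS1 (−1.68). From 15 to 30 min 14 rose and 9 fell, beside 33.1% and 16.3% of all 4417 genes tested, so the count of rises lay near the share over all genes. In M22 replicate 2 and RM11-1a replicate 2 the titles name another 25C RNA at 30 min, which does not cancel in this change. The change was not refitted without these arrays alone. LYS4 rose by 1.56 and ARG8 by 0.93, while GDH1 fell by 0.57 and HIS4 by 0.34 in addition to the falls of ARO9 and GLN1.

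Comparing the strains, the number of genes whose response differed rose after 5 min. By the limma F test over the 5 strains, 2 genes differed at 5 min, HIS5 (adjusted p 0.0016) and TRP2 (0.0117), beside 8.44% of all genes. The YPS163 value of HIS5 at 5 min rested on 1 array, at 1.99. At 15 min the count was 21 beside 25.4%, at 30 min 25 beside 36.9%, and at 45 min 23 beside 22%. At 60 min 26 genes differed beside 24%, and at 120 min 15 beside 17.5%. All 5 arginine and all 5 histidine genes differed at 30 and at 45 min, and 4 of 4 serine genes at 30, 45 and 60 min. With each time fitted alone the counts were 0, 0, 6, 4, 7 and 3 from 5 to 120 min, and without M22 they were 6, 14, 13, 11 and 4 from 15 to 120 min. With the array-code prefix as a covariate 13 genes differed at 15 min, 15 at 45 min and 9 at 120 min, and without the 3 arrays of another 25C RNA 16 differed at 30 min. With the series as a block, 11 genes differed at 5 min and 26 at 120 min. With each series left out in turn, the time of 5 min had 0 to 12 genes, 15 min 8 to 25, 30 min 14 to 29, 45 min 12 to 26, 60 min 15 to 28 and 120 min 7 to 21. The lowest counts at 15 and 30 min came without M22 replicate 2, those at 60 and 120 min without M22 replicate 1, and those at 5 and 45 min without DBY8268 replicate 1, the last shared with DBY8268 replicate 2.

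ARG1 had the most divided response. At 30 min ARG1 read −1.85 and −1.50 in K9, −2.06 and −1.79 in M22, −2.24 and −1.08 in RM11-1a, −2.14 and −1.79 in YPS163, against 1.65 and 2.14 in DBY8268. DBY8268 was above 0 and the 4 other strains below 0, with no overlap. At 60 min ARG1 read −1.60 and −1.68 in K9, 1.04 and 1.13 in M22, −3.10 and −1.50 in RM11-1a, −2.20 and −2.09 in YPS163, against 2.49 and 2.43 in DBY8268. M22 had by then joined DBY8268 above 0. The fitted values at 60 min, which adjust for the dye and so differ a little from the array means in K9, where the dyes were not swapped, were −1.36 in K9, 1.08 in M22, −2.30 in RM11-1a, −2.15 in YPS163 and 2.46 in DBY8268, with an SE of 0.34 or 0.35. All 5 passed the test, and the F test over strains gave limma adjusted p-values of 0.000155 at 15 min, 6.71e-07 at 30 min and 7.93e-09 at 60 min.

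ARG4 differed as ARG1 did in M22 and less so in DBY8268. At 60 min ARG4 read −0.27 and −0.92 in K9, 2.65 and 2.58 in M22, −1.75 and −1.11 in RM11-1a, −0.68 and −1.74 in YPS163, against 0.69 and 0.59 in DBY8268. M22 stood above all other strains. The fitted value of 2.62 ± 0.30 in M22 passed the test and that of 0.64 ± 0.30 in DBY8268 did not (SE; limma adjusted p 2.87e-08 and 0.158), and the F test gave an adjusted p of 3.22e-08. CPA1, ARG3 and ARG8 had their highest fitted values at 45 min in DBY8268. CPA1 then stood at 0.35 in K9, 0.84 in M22, 0.56 in RM11-1a, 1.15 in YPS163 and 2.11 in DBY8268, and ARG3 at −0.27, −0.41, −0.29, −0.14 and 1.42 in the same strain order. In the median of the 5 arginine genes at 60 min, M22 (1.09) and DBY8268 (1.19) stood apart from K9 (−0.43), RM11-1a (−0.21) and YPS163 (−0.29).

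**Figure D3:**
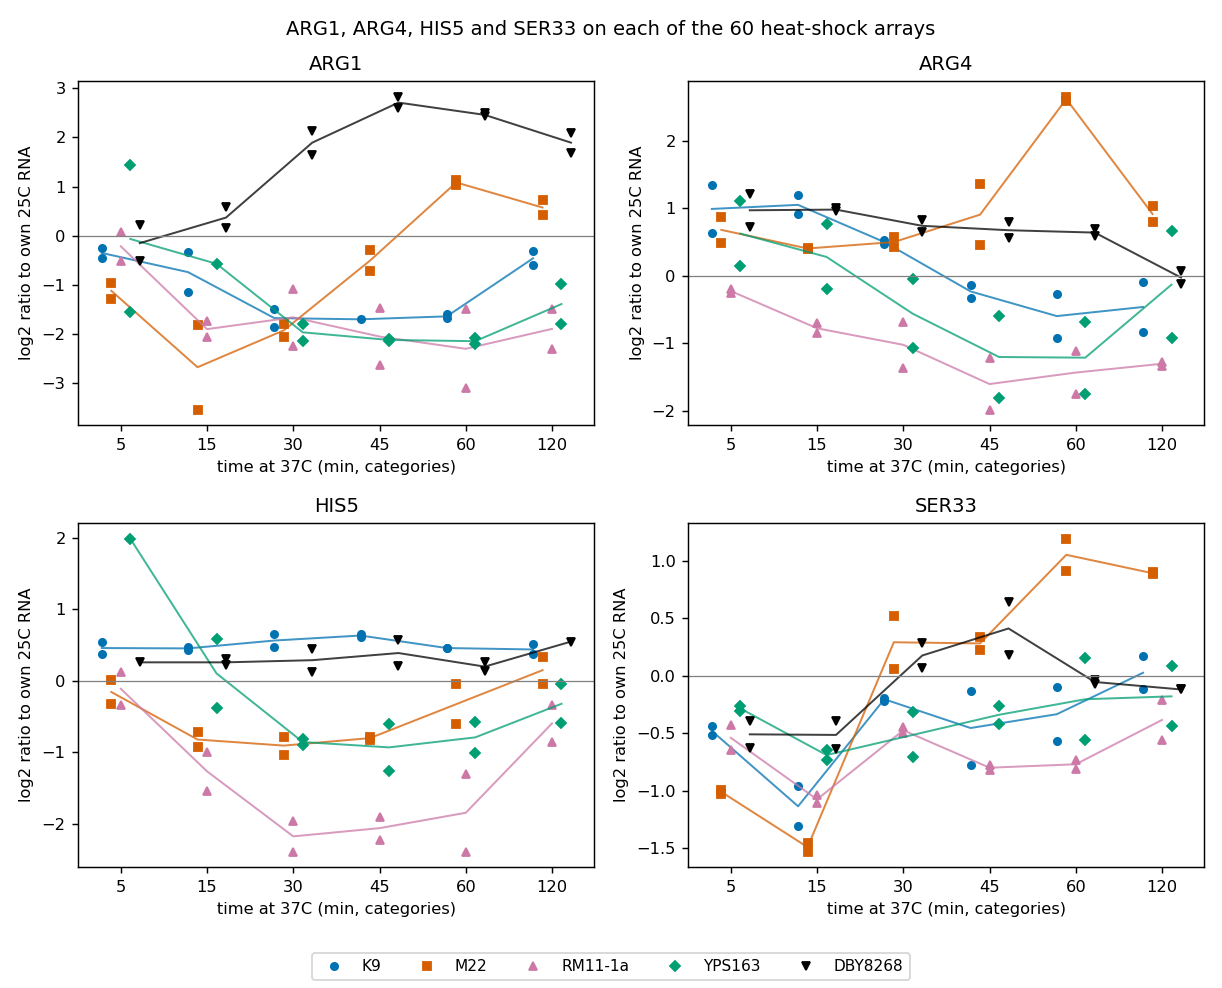
Log2 ratio to 25C (vertical axis) of ARG1, ARG4, HIS5 and SER33 on each array at 6 times after the shift (horizontal axis, min), coloured by strain, with a line through the mean of the available arrays of each strain. ARG1 is above 0 in DBY8268 from 30 min on while K9, RM11-1a and YPS163 lie below 0, and M22 crosses 0 between 45 and 60 min. HIS5 is lowest in RM11-1a at 30 min, and ARG4 and SER33 are highest in M22 at 60 min.

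Among the histidine genes, HIS5 differed most. At 30 min HIS5 read 0.66 and 0.47 in K9, −1.03 and −0.78 in M22, −1.96 and −2.39 in RM11-1a, −0.81 and −0.90 in YPS163, against 0.13 and 0.45 in DBY8268. RM11-1a lay below all other strains, and K9 and DBY8268 above 0. The F test over strains gave limma adjusted p-values of 0.000226 at 15 min and 3.89e-07 at 30 min. HIS4 at 15 min read −1.55 and −2.41 in K9, −2.38 and −2.27 in M22, −2.18 and −2.62 in RM11-1a, −2.51 and −1.72 in YPS163, against −0.76 and −0.53 in DBY8268. The DBY8268 arrays did not overlap the others, but the F test of HIS4 did not pass at 15 min (limma adjusted p 0.101). At 60 min it did (adjusted p 0.0015), with fitted values of −2.30 in K9, 0.35 in M22, −2.22 in RM11-1a, −0.49 in YPS163 and −0.17 in DBY8268. The median of the 5 histidine genes at 30 min was −0.83 in K9, −0.91 in M22, −2.14 in RM11-1a, −0.86 in YPS163 and −0.03 in DBY8268.

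LYS4 and LYS20 at 15 min, and LYS4, ARO4 and SER1 at 30 min, were below 0 on every array and differed between strains in how far they fell. LYS4 at 15 min read −1.87 and −2.63 in K9, −3.50 and −3.82 in M22, −2.08 and −2.99 in RM11-1a, −3.04 and −3.02 in YPS163, against −2.95 and −2.36 in DBY8268 (F test, limma adjusted p 0.00174). M22 was lowest, without overlap with any other strain. LYS20 at 15 min read −1.36 and −0.81 in K9, −2.47 and −2.71 in M22, −1.42 and −1.74 in RM11-1a, −1.85 and −2.10 in YPS163, against −2.62 and −2.02 in DBY8268 (adjusted p 0.00141 by limma). K9 was highest, and M22 and DBY8268 overlapped at the low end.

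At 30 min the fall of LYS4 was again deepest in M22, with arrays of −1.34 and −1.34 in K9, −1.92 and −2.37 in M22, −0.59 and −0.43 in RM11-1a, −0.76 and −1.06 in YPS163, against −1.55 and −1.28 in DBY8268 (F test, limma adjusted p 0.00021). ARO4 at 30 min read −2.39 and −2.03 in K9, −2.94 and −2.91 in M22, −1.45 and −1.29 in RM11-1a, −1.75 and −1.44 in YPS163, against −1.36 and −1.53 in DBY8268 (limma adjusted p 2.12e-05). M22 and then K9 were the lowest, and RM11-1a, YPS163 and DBY8268 overlapped. SER1 at 30 min read −2.21 and −2.17 in K9, −1.46 and −1.80 in M22, −1.80 and −2.01 in RM11-1a, −1.89 and −1.91 in YPS163, against −0.77 and −0.62 in DBY8268 (limma adjusted p 3.28e-05). DBY8268 stood nearest to 0, apart from the rest.

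TRP2 and SER33 crossed 0 between strains. TRP2 at 15 min read 0.05 and 0.04 in K9, −0.39 and −0.41 in M22, −0.20 and −0.98 in RM11-1a, 0.35 and 0.21 in YPS163, against −0.95 and −0.72 in DBY8268 (F test, limma adjusted p 0.00108). YPS163 was highest. SER33 at 60 min read −0.10 and −0.57 in K9, 1.19 and 0.91 in M22, −0.81 and −0.73 in RM11-1a, 0.15 and −0.56 in YPS163, against −0.07 and −0.04 in DBY8268 (limma adjusted p 7.14e-06). M22 was the only strain with both arrays above 0.

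For 15 min, each strain was also compared with the average of the 4 others. M22 was lower in 15 of the 41 genes and higher in none, beside 14.3% of all genes called in either direction, with ARG1 (−1.97), ARO8 (−1.16), LYS4 (−1.03), TRP5 (−0.98) and ARO1 (−0.95) the lowest. K9 was higher in 6 and lower in none, beside 3.78%: GLN1 (1.15), LYS20 (1.04), HIS5 (0.85), LYS2 (0.81), ARO3 (0.80) and TRP4 (0.77). RM11-1a was lower in 4, ARG4 (−1.43), HOM3 (−1.29), HIS5 (−1.26) and HIS7 (−1.02), beside 3.6%. YPS163 was higher in 2, TRP2 (0.73) and ARO4 (0.69), beside 5.34%. DBY8268 was higher in 6, ARG1 (1.84), SER3 (1.64), HIS4 (1.55), HIS1 (1.03), SER1 (0.73) and SER33 (0.58), and lower in TRP2 (−0.67), beside 10.3%. The median over the 41 genes was 0.43 in K9, −0.48 in M22 and 0.16 in DBY8268, beside −0.03, 0.03 and −0.15 over all genes.

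These counts moved with the processing. With the array-code prefix as a covariate they were 8 for M22, 0 for RM11-1a, 0 for YPS163 and 1 for DBY8268, and with 15 min fitted alone they were 2 for M22 and 0 for the 4 other strains. With the series as a block they were 13 for K9, 4 for YPS163 and 11 for DBY8268, and with arrays of a time scaled to one spread they were 4 for M22 and 11 for DBY8268. With that scaling the DBY8268 count held 5 higher and 6 lower genes, in place of 6 higher and 1 lower. Without M22 replicate 2 the M22 count was 1 and without M22 replicate 1 it was 6, and DBY8268 had 0 without its replicate 1 and 1 without its replicate 2. ARG1 had no value on 1 of the 2 YPS163 arrays at 15 min, where the other read −0.57.

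The change between 15 and 120 min differed between strains in 5 genes by the limma F test, beside 1.66% of all genes: ARG1 and SER33 (adjusted p 0.0292 each), GLN1 (0.0308), ASN1 (0.0467) and ARG4 (0.0494). ARG1 changed by 0.28 in K9, 3.25 in M22, 0.01 in RM11-1a, −0.41 in YPS163 and 1.53 in DBY8268, of which the M22 and DBY8268 values passed the test. SER33 changed by 1.16 in K9, 2.38 in M22, 0.69 in RM11-1a, 0.51 in YPS163 and 0.40 in DBY8268, and GLN1 by −0.58, 1.77, 0.90, 0.50 and 0.08 in the same order. M22 had the highest value in all 5 genes. The F count was 0 without M22, without M22 replicate 1, without either DBY8268 replicate, without K9 replicate 1 and with arrays scaled to one spread, and 1 without K9 replicate 2 or M22 replicate 2, so it rests on single series.

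At 25C, before heat, several of these genes were higher in the other strains than in DBY8268. Over the mean of the 4 strains, 18 of 37 genes were higher and 4 lower by limma at an adjusted p under 0.05, beside 18.7% and 22.1% of 5306 genes, with a median of 0.24 beside −0.03. All 3 arginine genes tested, all 4 histidine genes and all 3 serine genes were higher. The 4 lower genes were LYS20 (−0.66), GLN1 (−0.41), THR4 (−0.38) and ASN1 (−0.24). All 4 comparisons share the DBY8268 RNA, so a value of DBY8268 itself enters each of them.

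ARG1 was the highest gene on average. It read 1.79 and 2.18 in K9, 3.36 and 2.75 in M22, 2.68 and 3.16 in RM11-1a, and 1.88 and 2.62 in YPS163, over DBY8268, with all 8 arrays above 0. Its mean was 2.55 ± 0.12 (SE; limma adjusted p 5.77e-06), and its call held in each strain and in every alternative. SER3 read 1.32 and 1.90 in K9, 1.04 and 1.71 in M22, 3.41 and 3.61 in RM11-1a, and 0.69 and 2.14 in YPS163, again with all 8 arrays above 0. RM11-1a stood highest, without overlap, and the mean of SER3 was 1.98 ± 0.11 (SE; limma adjusted p 1.48e-05).

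HIS5 and ARG4 followed the same order of strains, with RM11-1a highest and K9 nearest to 0. HIS5 read 0.13 and 0.03 in K9, 1.72 and 1.22 in M22, 2.26 and 1.63 in RM11-1a, and 0.73 and 0.78 in YPS163, and its call held in every alternative in M22 and RM11-1a. ARG4 read −0.10 and 0.13 in K9, 2.61 and 0.42 in M22, 3.02 and 1.64 in RM11-1a, and 1.25 and −0.25 in YPS163. The replicates of ARG4 lay far apart: without M22 replicate 1 its adjusted p in M22 was 0.30, and without RM11-1a replicate 1 its adjusted p in RM11-1a was 0.12 by limma.

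**Figure D4:**
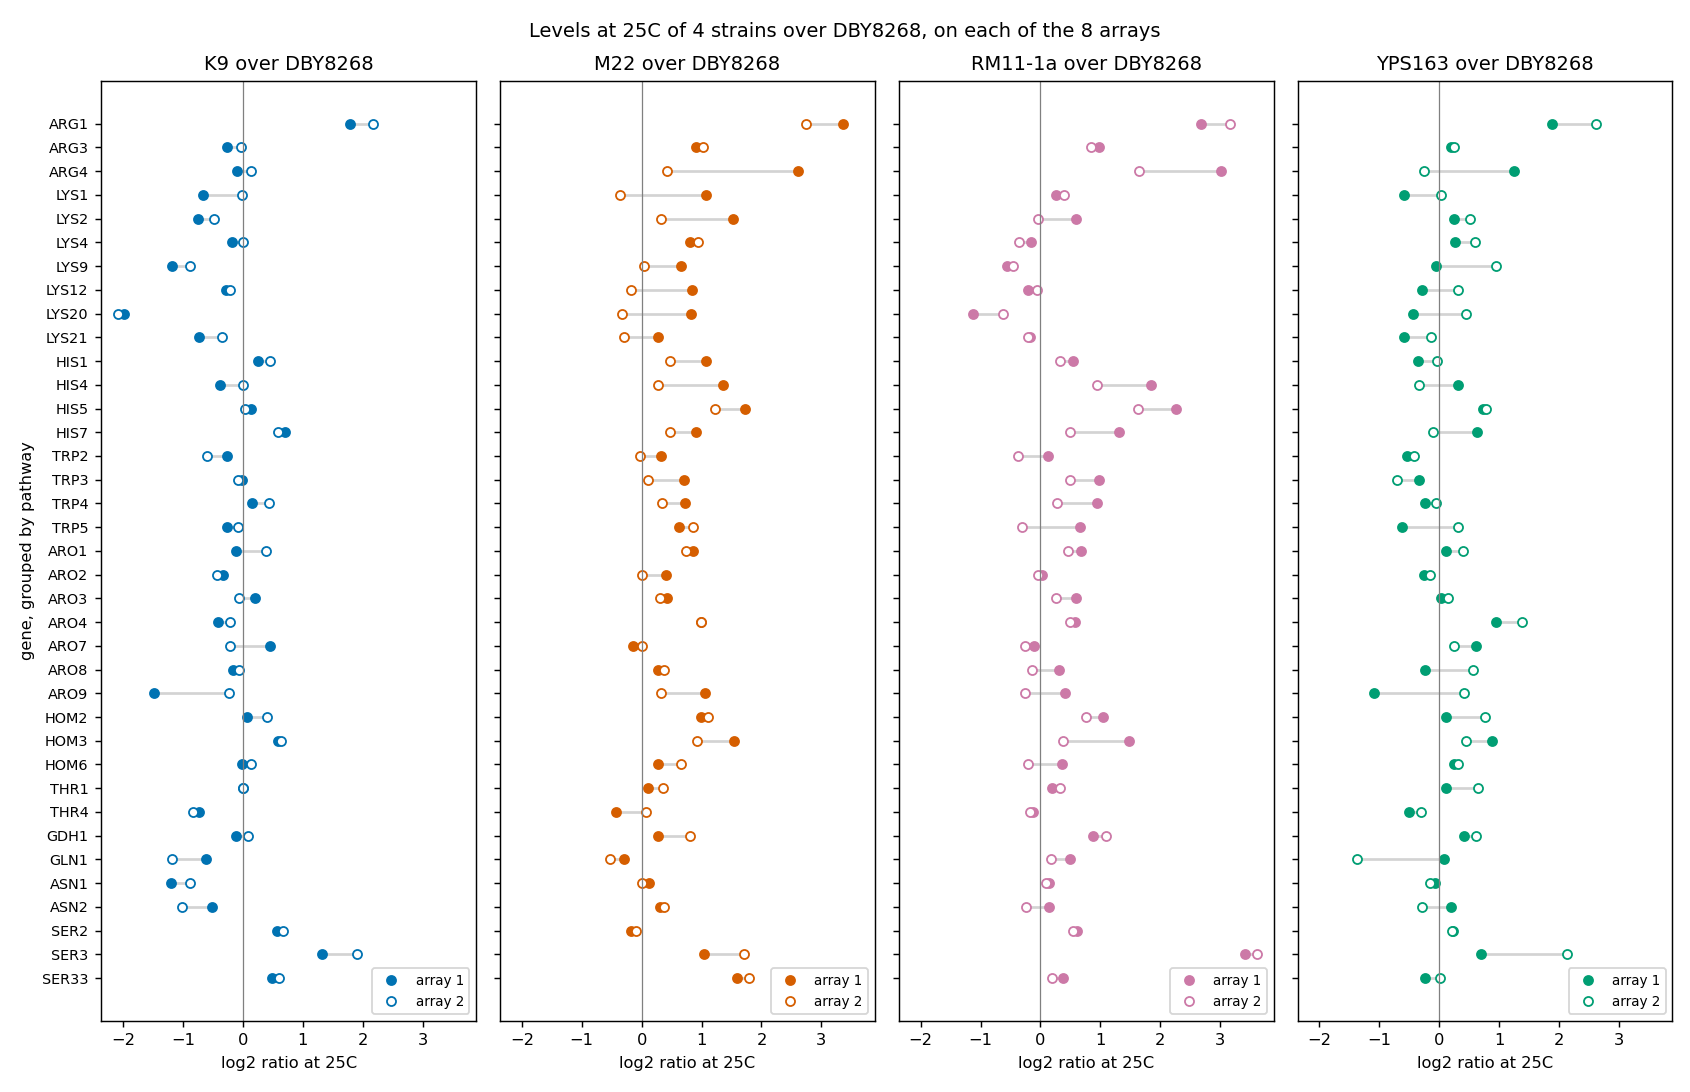
Log2 level over DBY8268 at 25C (horizontal axis) of the 37 genes tested, grouped by pathway, in 1 panel per strain, with array 1 as filled and array 2 as open points. ARG1 and SER3 lie right of 0 on all 8 arrays, and LYS20 lies near −2 in K9.

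By strain, M22 had 15 genes higher and 0 lower, beside 10.2% and 13% of all genes, and RM11-1a 12 higher and 0 lower, beside 7.75% and 6.65%. YPS163 had 5 higher, ARG1, SER3, ARO4, HIS5 and GDH1, and 0 lower, beside 7.99% and 12.7%. K9 had 4 higher, ARG1, SER3, HIS7 and SER2, and 6 lower, beside 7.86% and 6.05%. The 6 genes lower in K9 were LYS20, ASN1, LYS9, GLN1, THR4 and ASN2. LYS20 read −1.98 and −2.08 in K9, 0.83 and −0.33 in M22, −1.12 and −0.62 in RM11-1a, and −0.44 and 0.44 in YPS163, over DBY8268. K9 was lowest, without overlap. Its isozyme gene LYS21 read −0.74 and −0.35 in K9, which did not pass the test.

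Other members lower in K9 had both arrays below 0. ASN1 read −1.20 and −0.89, LYS9 −1.18 and −0.88, GLN1 −0.61 and −1.18, and THR4 −0.74 and −0.83. Among the genes higher in 1 or a few strains, SER33 read 1.60 and 1.79 in M22, ARO4 0.95 and 1.39 in YPS163, and HIS7 0.70 and 0.58 in K9. The F test over the 4 strains called 9 of 37 genes beside 10.8% of all genes, with the smallest limma adjusted p for SER33 (0.00778), HIS5 (0.0109) and SER3 (0.0116). Counts at 25C rested on few arrays: K9 had 1 called gene without its replicate 1 and 2 without its replicate 2, M22 had 3 without its replicate 1, RM11-1a 3 without its replicate 1 and YPS163 1 without its replicate 2, and the F test gave 3 without K9 replicate 1.

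The level of a strain over DBY8268 after heat was computed as the 25C difference plus the strain's heat response minus that of DBY8268. It carries no test, since the 25C RNA enters the terms with opposite sign. ARG1 in M22 stood 3.06 over DBY8268 at 25C, 0.01 at 15 min, −0.77 at 30 min and 1.74 at 120 min. ARG1 in YPS163 stood at 2.25, 1.03, −1.61 and −1.03 at those times, in K9 at 1.99, 1.15, −1.31 and −0.09, and in RM11-1a at 2.92, 0.65, −0.64 and −0.87, with an SE near 0.54 after heat. The computed values of ARG1 at 30 min were below 0 in all 4 strains, but those of M22 and RM11-1a lay within 2 SE of 0. This SE treats the terms as independent, and all 4 strains share the DBY8268 values. The distance in SE is therefore a description for every strain.

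SER3 in RM11-1a stood 3.51 over DBY8268 at 25C, 1.84 at 15 min, 0.88 at 30 min and 1.19 at 120 min, with an SE of 0.59 after heat. SER33 in M22 stood at 1.70 at 25C, 0.72 at 15 min, 2.80 at 60 min and 2.71 at 120 min, with an SE of 0.27 after heat. At the times given, the computed level of SER33 in M22 was above that of DBY8268, and that of SER3 in RM11-1a was nearer to DBY8268 than at 25C. As for ARG1, these computed values carry no test and their SE treats the terms as independent.

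**Figure D5:**
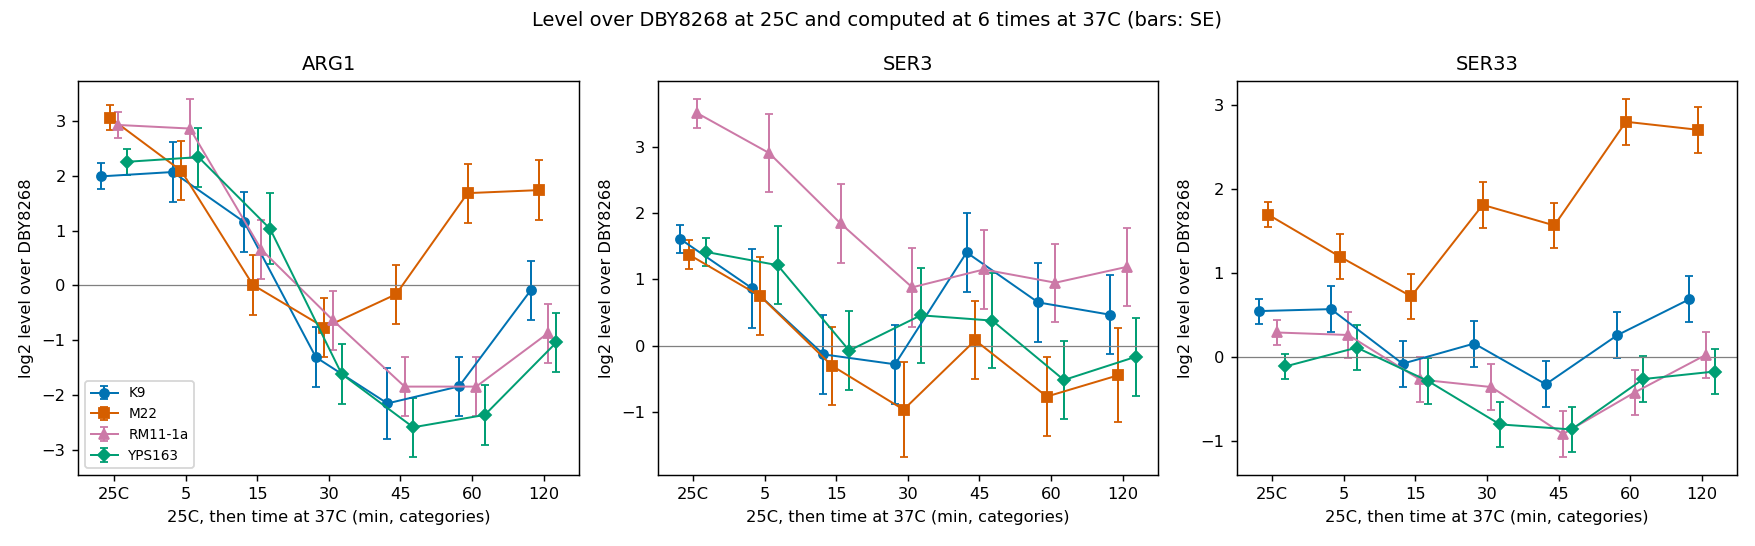
Log2 level over DBY8268 (vertical axis) of ARG1, SER3 and SER33 in K9, M22, RM11-1a and YPS163, at 25C as measured and at 6 times after the shift as computed (horizontal axis, min), with bars of 1 SE. ARG1 is above 0 in all 4 strains at 25C, and its computed points at 30 min are below 0, those of M22 and RM11-1a within 2 SE of it.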

How the data were processed

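RNA of 5 yeast strains was measured on 68 2-colour arrays, 60 of heat time courses and 8 at 25C. The authors deposited log ratios, read here as log2, with 1 value per reading frame and array. Neither labels nor table give the log base, the normalization or any centring (software: not given in the sources used here), and both scale and centring are therefore unknown. Per the labels' protocols, RNA was extracted with hot phenol and labelled indirectly through amino-allyl nucleotides. Arrays held 3418 to 6098 values in the time courses and 4587 to 5659 at 25C, and array medians lay between −0.17 and 0.28. The number of arrays limits the precision, with a median SD of an array of 0.294 in the time courses and 0.245 at 25C.

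Replicates of opposite dye correlated positively, so the deposited values were already turned one way. The sign at 25C was read from ASP3-1, present in the S288c background and low in the 4 other strains on all 7 arrays with a value, and from LEU2 and URA3, deleted in RM11-1a and low there on the 1 array with values. The time courses of K9 carried no dye swap. Reading frames matched a symbol of assembly R64 in 5832 of 6297 cases, and the annotation was used for names only. Replicates held equal values in 0.431% to 1.68% of genes.

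Each gene was fitted with limma 3.58.1 (R 4.3.3): 30 means of strain and time plus a dye term over the 60 arrays, 4 strain means plus a dye term over the 8 arrays, and differences within a series for changes over time. P-values were adjusted by Benjamini-Hochberg over all genes tested, at a threshold of 0.05. Genes needed 1 value in each of the 30 groups, or values on at least 6 of 8 arrays at 25C. The scripts were tested on simulated data with independent errors on each array, which leaves out the correlation of arrays within a series. Separate cultures are not stated for the replicates, and a p-value then covers only the variation among these arrays, possibly technical.

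Series numbers pair the arrays of a strain, since the titles name the 25C RNA that its times share. Deviations of same-series arrays correlated with r between 0.0379 and 0.794 (median 0.411), over 0.1 in 72 of 75 pairs of times. The main fit treats the 60 arrays as independent, so its p-values take no account of this correlation. The fit with the series as a block was an alternative. At 25C the dye term is also the array number. The labels name another 25C RNA for 3 arrays, 2 of M22 (30 and 45 min) and 1 of RM11-1a (30 min), and call 1 array of YPS163 at 60 min a technical repeat. Other alternatives were centring, one spread per array, no dye term, the prefix of the array code as a covariate, stricter or looser filters, each time alone, without M22, and each series left out.

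Arrays are shown for the members with the highest and lowest called means at 15 and 120 min, the smallest p-values of the F tests at 15 and 30 min, the extremes at 25C and of the change from 15 to 120 min, and the isozyme pairs. The members, the lists and the tests were chosen with earlier results of these data known. No sequence is shown, and a planned motif and protein comparison was not run. 1 gene of the lists is not reported here.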

Additional observations from a re-analysis of the deposited data

Results flagged for a closer look

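All groups held 2 arrays, so no array was tested for lying far from the rest of its group. Results are listed here because the response of the same gene differed between strains by a test of the difference itself, the limma F test over strains. Of the 41 genes it did so for 2 at 5 min, for 21 at 15 min, for 25 at 30 min, for 23 at 45 min, for 26 at 60 min and for 15 at 120 min. The shares of all genes called at these times were 8.44%, 25.4%, 36.9%, 22%, 24% and 17.5%. For the change from 15 to 120 min the count was 5, beside 1.66% of all genes, and at 25C 9 of 37 genes differed between the 4 strains, beside 10.8%.

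At 15 min the smallest adjusted p-values were those of ARG1 (0.000155), HIS5 (0.000226), TRP2 (0.00108), LYS20 (0.00141) and LYS4 (0.00174). At 30 min they were those of HIS5 (3.89e-07), ARG1 (6.71e-07), ARO4 (2.12e-05), SER1 (3.28e-05) and LYS4 (0.00021). ARG1 and HIS5 led both times, with ARG1 on opposite sides of 0 in DBY8268 and the 4 other strains at 30 min.

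In the change from 15 to 120 min the F test called SER33 (0.0292), ARG1 (0.0292), GLN1 (0.0308), ASN1 (0.0467) and ARG4 (0.0494). At 25C the smallest adjusted p-values were those of SER33 (0.00778), HIS5 (0.0109), SER3 (0.0116), ARO4 (0.0174) and ARG3 (0.0291). ARG1, at 2.55 over DBY8268 on average, was not called as different among the 4 strains at 25C.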

How the results depend on the processing

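No direction of a called gene was reversed: of 4206 comparisons of 240 gene-level calls under an alternative, 3943 kept the call and 263 lost it. The counts of the mean response at 5, 15, 30, 60 and 120 min kept within 1.5 times under all alternatives. Those of the mean changes over time did so under centring, one spread per array, the stricter filter, without M22 and with each series left out. No change over time was refitted with the array-code prefix as a covariate, the replicate block or no dye term. Nor was any refitted without the 3 arrays of another 25C RNA or without the technical repeat. The array-code prefix as a covariate moved the mean count at 45 min to 18 and the F counts to 13 at 15 min, 15 at 45 min and 9 at 120 min. With it the count against the other 4 strains was 8 for M22, 0 for RM11-1a, 0 for YPS163 and 1 for DBY8268. The replicate block (series within strain) gave F counts of 11 at 5 min and 26 at 120 min, and 13 for K9, 4 for YPS163 and 11 for DBY8268 against the others, and moved no other count by over 1.5 times. One spread per array gave 4 for M22, 11 for DBY8268 and 0 for the F test of the change from 15 to 120 min. Centring gave 1 for YPS163, and moved the median of all genes by −0.12 at 30 min and by less than 0.1 at the other times. Without the 3 arrays of another 25C RNA the F count at 30 min was 16. Without M22 the F counts were 6, 14, 13, 11 and 4 from 15 to 120 min and 0 for the change, with 1 for K9, 1 for YPS163 and 4 for DBY8268. Each time alone, with fewer arrays behind the spread, gave F counts of 0, 0, 6, 4, 7 and 3 from 5 to 120 min, with 0 for K9, 2 for M22, 0 for RM11-1a, 0 for YPS163 and 0 for DBY8268. The cause of these moves was not tested. No dye term, the filters, the technical repeat and, at 25C, no replicate block moved no count by over 1.5 times.

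Leaving out each series in turn, which leaves 1 array in its groups and assumes that it varies like the others, gave mean counts of 21 to 30 at 5 min, 31 to 36 at 15 min, 28 to 32 at 30 min, 26 to 30 at 45 min, 20 to 26 at 60 min and 17 to 23 at 120 min. Changes gave 28 to 37 from 5 to 15 min, 17 to 26 from 15 to 30 min and 26 to 30 from 15 to 120 min. The F counts ran from 0 to 12 at 5 min, 8 to 25 at 15 min, 14 to 29 at 30 min, 12 to 26 at 45 min, 15 to 28 at 60 min and 7 to 21 at 120 min, and from 0 to 7 for the change. At 5 min it was 0 without DBY8268 replicate 1, 4 without either RM11-1a replicate, 12 without YPS163 replicate 1 and 5 without YPS163 replicate 2. At 15 min it was 12 without DBY8268 replicate 2 or M22 replicate 1 and 8 without M22 replicate 2. At 30 min it was 15 without DBY8268 replicate 1 and 14 without M22 replicate 2. At 45 min it was 12 without either DBY8268 replicate, 15 without M22 replicate 1 and 14 without M22 replicate 2. At 60 min it was 17, 15 and 16, and at 120 min 9, 7 and 8, without DBY8268 replicate 1, M22 replicate 1 and M22 replicate 2. At 120 min it was also 8 without K9 replicate 1. Against the other 4 strains, the count was 1 to 9 for K9, 1 to 19 for M22, 2 to 5 for RM11-1a, 1 to 2 for YPS163 and 0 to 11 for DBY8268. It was 1 for K9 without K9 replicate 1 or DBY8268 replicate 1 and 2 without DBY8268 replicate 2 or either M22 replicate. For M22 it was 6 and 1 without its own replicates 1 and 2, and 9 without K9 replicate 1 or DBY8268 replicate 2. For DBY8268 it was 0 and 1 without its own replicates 1 and 2, 3 without either M22 replicate and 11 without YPS163 replicate 1. It was 2 for RM11-1a without its replicate 2. At 25C the mean count was 14 to 23, with 14 without RM11-1a replicate 1, and counts were 1 to 9 for K9, 3 to 16 for M22, 3 to 13 for RM11-1a, 1 to 7 for YPS163 and 3 to 12 for the F test. The F count at 25C was 3 without K9 replicate 1, and 5 without K9 replicate 2, M22 replicate 1, either RM11-1a replicate or YPS163 replicate 2. Of the called genes, 13 of 22 in the mean at 25C, 1 of 10 in K9, 3 of 15 in M22, 3 of 12 in RM11-1a and 1 of 5 in YPS163 held in every alternative.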

Other observations

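Some genes that break down amino acids were higher early after the shift. Of 6 listed genes for the breakdown of arginine, proline and amides 5 were tested, and at 15 min 4 were higher and 1 lower in the mean of the 5 strains by limma, beside 38.1% and 39.9% of all genes. CAR2, the ornithine aminotransferase gene, averaged 1.59, PUT2, a proline breakdown gene, 1.58, the arginase gene CAR1 1.08 and GDH2 0.47, while DUR1,2 averaged −1.02. CAR1 and CAR2 stood at 0.91 and 1.03 at 5 min, when ARO9 and ARO10 were also high. At 120 min 1 of the 5 was higher and 2 were lower, beside 30.7% and 20.9% of all genes.

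Amino acid permease genes were mixed. Of 13 listed 9 were tested, and at 15 min 5 were lower, led by TAT1 (−1.75) and AGP1 (−1.40), and 2 were higher, DIP5 (1.21) and BAP2 (0.39), beside the same 39.9% and 38.1% of all genes. AGP1 was lowest at 5 min, at −2.08, as GLN1 was. Purine synthesis genes, which Gcn4 also activates, had 10 of 11 lower at 15 min with a median of −2.68, beside −0.91 for the 41 amino acid genes. At 25C the tested purine genes were higher than in DBY8268 in 9 of 10 cases on average, with a median of 0.95, beside 18.7% of all genes higher and a median of −0.03. No test of a difference between the lists was made.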
